A study of Mus musculus with 12 samples.

Results

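The glucocorticoid receptor gene *Nr3c1* and 9 genes known from other cells to be bound and regulated by the receptor were read in ES cells and XEN-like cells with and without *Sox7*. The 10 genes were taken by name, as the probes of the array whose gene name was *Nr3c1*, *Fkbp5*, *Per1*, *Tsc22d3*, *Dusp1*, *Sgk1*, *Zbtb16*, *Cebpd*, *Cebpb* or *Errfi1*, and make up 10 of the 34836 gene names on the array. They are covered by 12 probes, since *Nr3c1* and *Per1* have 2 each. All 10 genes had a probe well above background on all 12 arrays, and the second *Per1* probe was well above background on 0 of 12.

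RNA was hybridized to 12 one-colour arrays, 3 for each of 4 groups of mouse cells. The groups were *Sox7* (+/−) ES cells cultured without dexamethasone (Dex), *Sox7* (+/−) XEN-like cells after 4 days with Dex, *Sox7* (−/−) ES cells without Dex, and *Sox7* (−/−) XEN-like cells after 4 days with Dex. XEN-like cells are ES cells driven towards extraembryonic endoderm. Cells of all 4 groups, the untreated ones included, carried Gata6GR, a fusion of mouse Gata6 with the ligand-binding domain of the human glucocorticoid receptor, expressed from a constitutive CAG promoter. Each genotype was a single clone, and the null clone had been obtained from the heterozygous one by high-dose puromycin selection. No cells without Gata6GR were treated with Dex here, so an action of Dex through the endogenous receptor, through Gata6GR and through the change of cell state cannot be told apart.

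Glucocorticoids such as Dex enter the cell and bind a receptor that is held in the cytoplasm by Hsp90 and its co-chaperones. The bound receptor moves to the nucleus, where it raises some genes through binding elements made of a pair of short inverted words and lowers others, often through contact with other transcription factors. In many tissues *Fkbp5*, *Tsc22d3*, *Per1*, *Zbtb16* and *Sgk1* rise within hours of a glucocorticoid and serve as a readout of receptor activity, and *Fkbp5* encodes a co-chaperone that in turn dampens the receptor.

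To show what receptor-binding words lie beside the start sites of these genes, the promoter windows of RefSeq (GRCm38.p6) were searched on both strands. Windows of 7 of the 10 genes were searched, 16 in all. *Nr3c1* was left out of this search, and *Zbtb16* and *Cebpd* have no window in the table used. The palindromic receptor element, AGAACA and then TGTTCT with any 3 bases between them, occurred in 1 of the 6 windows of *Sgk1*, 189 bases before that start site, and in 3 of all 32851 windows (0.00913%). A looser form with any base as the fourth of the second word, and a still looser one with also any base as the third of the first word, were found in the same *Sgk1* window and in no other window of these genes, against 0.0396% and 0.0639% of all windows. The single word AGAACA, which is part of the palindrome, was found in 3 of 6 *Sgk1* windows and 1 of 3 *Tsc22d3* windows, against 19% of all windows. Of the GATA words, AGATAA occurs in 11.2% of all windows, and its form ending in G in 8.95%. The form TGATAA occurs in 9.05%, and its form ending in G in 7.29%. At least one of these 4 forms, which do not overlap the receptor words, was found in 1 of 2 *Errfi1* windows and 2 of 6 *Sgk1* windows. The windows of *Fkbp5*, *Per1*, *Dusp1* and *Cebpb* held none of the 8 words, which says only that these letters are not in the 300 bases searched. The 250 bases before the start site are printed below for the *Sgk1* window with the palindrome, the *Tsc22d3* window with the single word, the *Errfi1* window with GATA words and the window of *Fkbp5*, a gene that fell in both genotypes. Capitals mark the palindrome and AGAACA on either strand in *Sgk1* and *Tsc22d3*, and GATA words on either strand in *Errfi1*.
Sgk1, chr10:21993640-21993889, plus strand: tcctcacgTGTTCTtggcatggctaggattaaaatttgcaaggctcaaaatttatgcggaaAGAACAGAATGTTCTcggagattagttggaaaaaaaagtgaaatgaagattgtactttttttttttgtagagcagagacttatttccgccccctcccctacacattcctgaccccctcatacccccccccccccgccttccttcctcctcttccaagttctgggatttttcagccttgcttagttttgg
Tsc22d3, chrX:140600523-140600772, minus strand: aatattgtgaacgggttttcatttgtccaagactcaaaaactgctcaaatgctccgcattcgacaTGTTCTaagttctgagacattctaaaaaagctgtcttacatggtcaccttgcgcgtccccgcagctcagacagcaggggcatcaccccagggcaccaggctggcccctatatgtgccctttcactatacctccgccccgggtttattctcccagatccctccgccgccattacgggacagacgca
Errfi1, chr4:150853546-150853795, plus strand: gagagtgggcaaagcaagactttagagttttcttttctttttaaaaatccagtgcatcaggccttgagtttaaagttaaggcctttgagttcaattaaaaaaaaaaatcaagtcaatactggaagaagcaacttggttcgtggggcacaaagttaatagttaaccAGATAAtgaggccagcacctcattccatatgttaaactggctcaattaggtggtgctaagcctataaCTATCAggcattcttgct
Fkbp5, chr17:28486150-28486399, minus strand: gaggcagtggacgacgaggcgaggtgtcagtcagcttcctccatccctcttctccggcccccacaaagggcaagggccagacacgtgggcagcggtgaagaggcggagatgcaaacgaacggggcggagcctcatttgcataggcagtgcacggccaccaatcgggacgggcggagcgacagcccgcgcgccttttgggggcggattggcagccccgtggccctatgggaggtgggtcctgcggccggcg

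The labels were checked first with *Sox7* itself. Its signal, given throughout as a percent of the 75th percentile of the array, was 218 to 229 on the *Sox7* (+/−) ES arrays and 490 to 688 on the *Sox7* (+/−) XEN-like arrays. On the 6 *Sox7* (−/−) arrays it was 1.48 to 2.57 and not well above background. Of 12 ES cell genes, 8 were called lower and 1, *Klf4* (log2 1.46), higher with Dex in *Sox7* (+/−) cells, and 10 lower and 0 higher in *Sox7* (−/−) cells. All 12 were well above background on every ES array, and on every XEN-like array 9 still were and *Nanog*, *Sox2* and *Fgf4* were not. Their summed signal was 85022 to 131633 on the ES arrays and 59874 to 76482 on the XEN-like arrays. Of 14 XEN cell genes 10 were called higher and 1, *Cubn* (log2 −1.85), lower with Dex in *Sox7* (+/−) cells, and 12 higher and 0 lower in *Sox7* (−/−) cells. Over all tested probes 11% were called higher and 14% lower in *Sox7* (+/−) cells, and 14.6% and 14.2% in *Sox7* (−/−) cells. On an array 41.7% to 52.3% of spots passed background, and 0 were saturated. Replicates correlated with r of 0.982 to 0.996, and *Sox7* (+/−) XEN-like replicate 3 had the lowest mean correlation with the other replicates of its group, 0.983. The arrays lay on 2 slides, the first of which held all *Sox7* (−/−) ES arrays and, of the XEN-like arrays, only *Sox7* (−/−) replicate 1. In the source labels the *Sox7* (+/−) ES arrays all bear the number 1, which leaves it unknown whether they came from separate cultures, and p-values measure only the spread between arrays. In bulk RNA, fewer cells of a type and less RNA per cell cannot be told apart.

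**Figure D1:**
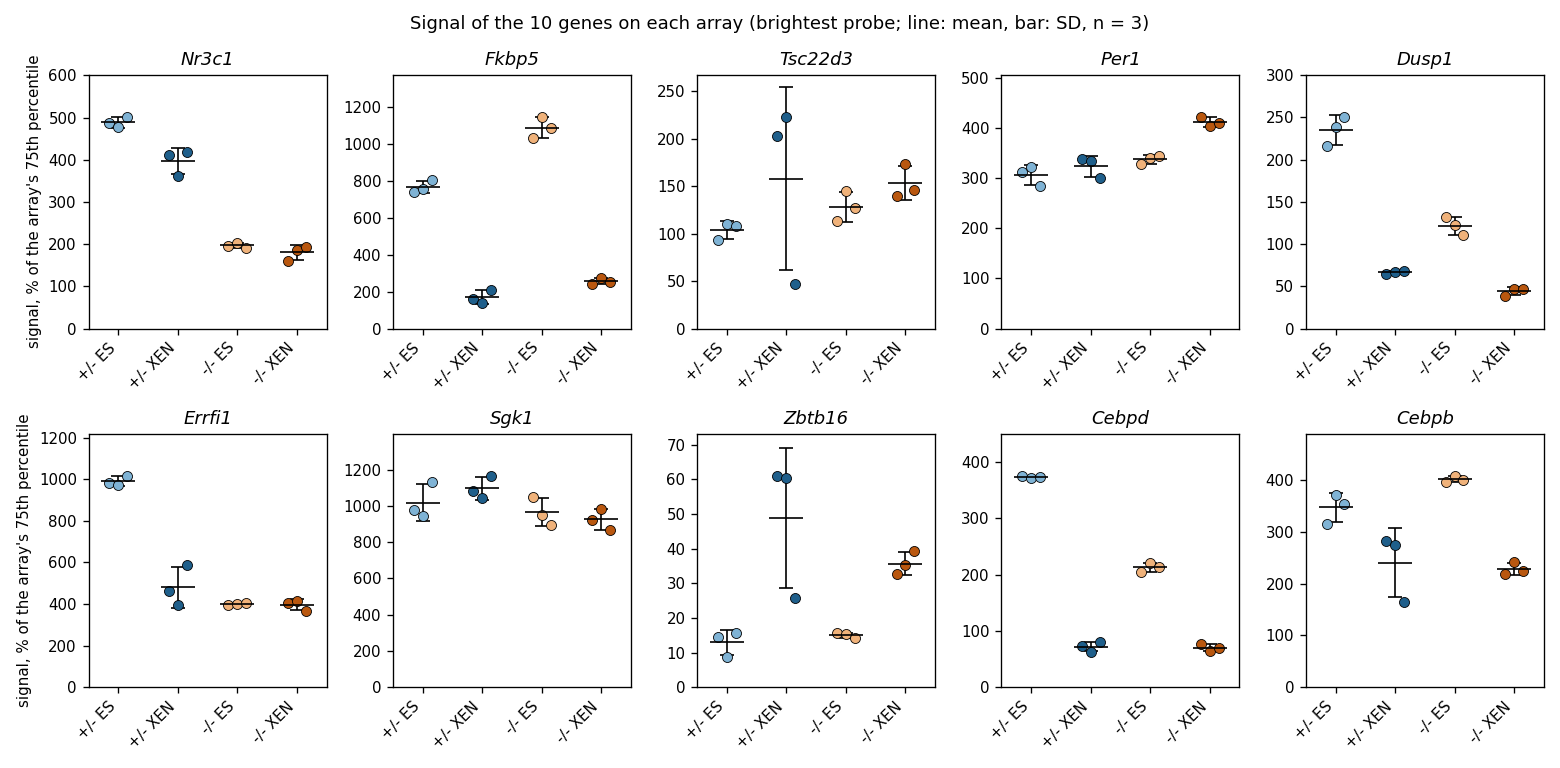
Signal of the brightest probe of each gene on the 12 arrays, as a percent of the 75th percentile of the array, for *Sox7* (+/−) and *Sox7* (−/−) ES and XEN-like cells; points are arrays, lines are means and bars are SD (n = 3). *Fkbp5*, *Dusp1* and *Cebpd* sit lower on all 6 XEN-like arrays than on any ES array, *Zbtb16* sits higher on all 6, and *Sgk1* overlaps between ES and XEN-like cells in both genotypes.

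With Dex, 4 of the 10 genes fell and 1 rose in *Sox7* (+/−) cells, and 3 fell and 1 rose in *Sox7* (−/−) cells. *Fkbp5*, *Dusp1* and *Cebpd* fell in both genotypes by 1.47 to 2.38 on the log2 scale, *Zbtb16* rose in both, and *Errfi1* fell in *Sox7* (+/−) cells. *Sgk1*, *Per1*, *Tsc22d3*, *Cebpb* and the upstream *Nr3c1* probe passed in neither genotype. A gene was called when limma's Benjamini-Hochberg adjusted p, over all 25940 tested probes, was under 0.05 and the change was over 2-fold. By the same rule 11% of all tested probes were called higher and 14% lower in *Sox7* (+/−) cells, and 14.6% and 14.2% in *Sox7* (−/−) cells. With no minimum fold, 1 of the 10 was higher and 6 lower in *Sox7* (+/−) cells, against 37.5% and 25.3% of all tested probes, and 2 were higher and 4 lower in *Sox7* (−/−) cells, against 34% and 31.3%. The median log2 change of the 10 genes was −0.44 in *Sox7* (+/−) cells and −0.10 in *Sox7* (−/−) cells, against 0.16 and 0.07 over all tested probes. The median of all tested probes in *Sox7* (+/−) cells was −0.33 when arrays were scaled by 8 spike-in controls. Of all probes called there, 44.1% were higher, against 18.8% with that scaling and 19.6% with the deposited values. For the difference of responses these shares were 67.6%, 89.8% and 89.5%, and between *Sox7* (−/−) and *Sox7* (+/−) XEN-like cells they were 51.4%, 76.8% and 89.9%. The changes given here are relative to the 75th percentile.

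The receptor gene gave different pictures by its 2 probes. Both lie on the minus strand of chromosome 18 (mm9), the upstream one at 39574183 to 39574242 and the downstream one at 39571641 to 39571700, 2542 bases further along the transcribed strand. The upstream probe had the higher mean signal over all arrays and stands for the gene in counts. The upstream *Nr3c1* probe read 487, 477 and 501 in *Sox7* (+/−) ES cells, 411, 361 and 418 in *Sox7* (+/−) XEN-like cells, 196, 204 and 192 in *Sox7* (−/−) ES cells and 160, 187 and 194 in *Sox7* (−/−) XEN-like cells. All 6 *Sox7* (+/−) arrays lay above all 6 *Sox7* (−/−) arrays, and within *Sox7* (−/−) cells the ES and XEN-like arrays overlapped. With Dex this probe changed by a log2 of −0.30 (SE 0.09, adjusted p = 0.0122) in *Sox7* (+/−) cells and −0.13 (SE 0.09, adjusted p = 0.205) in *Sox7* (−/−) cells, both under 2-fold.

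The downstream *Nr3c1* probe read 301, 273 and 272 in *Sox7* (+/−) ES cells, 109, 128 and 116 in *Sox7* (+/−) XEN-like cells, 311, 304 and 319 in *Sox7* (−/−) ES cells and 216, 212 and 218 in *Sox7* (−/−) XEN-like cells. On this probe the XEN-like arrays lay below the ES arrays in both genotypes, and the *Sox7* (−/−) arrays lay above the *Sox7* (+/−) arrays in both cell states. It fell with Dex in *Sox7* (+/−) cells by 1.26 on the log2 scale (SE 0.07, adjusted p = 1.89e-07, 2.39-fold), and its change in *Sox7* (−/−) cells was −0.53 (SE 0.07, adjusted p = 9.98e-05), under 2-fold. The difference of these responses was 0.73 (SE 0.10, adjusted p = 0.000749), and 1.13 for this *Nr3c1* probe with spike-in scaling, over 2-fold. The same test for the upstream probe gave 0.17 (SE 0.12, adjusted p = 0.342).

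**Figure D2:**
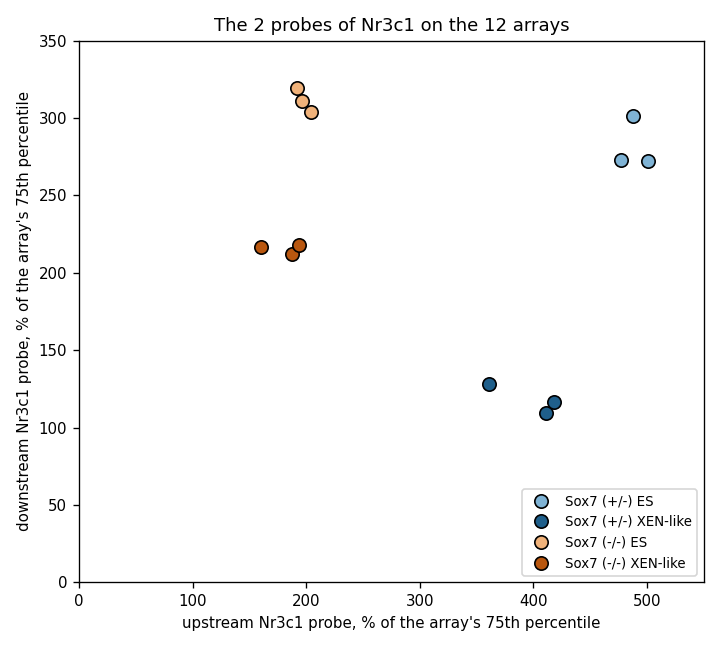
Signal of the upstream probe of *Nr3c1* against that of the downstream probe on each of the 12 arrays, both as a percent of the 75th percentile of the array, coloured by group. The 6 *Sox7* (+/−) arrays lie at 361 or more on the upstream probe and the 6 *Sox7* (−/−) arrays at 204 or less, while on the downstream probe the lowest arrays are the 3 *Sox7* (+/−) XEN-like arrays, at 109 to 128.

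Between the genotypes, the upstream *Nr3c1* probe was lower in *Sox7* (−/−) cells by 2.48-fold in ES cells (log2 −1.31, SE 0.09, adjusted p = 2.89e-06) and by 2.20-fold in XEN-like cells (log2 −1.14, SE 0.09, adjusted p = 1.12e-05). The downstream probe went the other way, by 0.14 (SE 0.07, adjusted p = 0.137) in ES cells and 0.87 (SE 0.07, adjusted p = 2.12e-05) in XEN-like cells, both under 2-fold. The XEN-like difference of the upstream *Nr3c1* probe was under 2-fold with normexp correction (−0.98), spike-in scaling (−0.89) and the deposited values (−0.64). That of the downstream *Nr3c1* probe was over 2-fold with spike-in scaling (1.12, adjusted p = 0.000189) and the deposited values (1.11, adjusted p = 1.10e-06). On each array the log2 difference between the probes, upstream minus downstream, was 0.69 to 1.91 in *Sox7* (+/−) cells and −0.74 to −0.17 in *Sox7* (−/−) cells, without overlap. The mean genotype difference of this value, which was chosen after the signals had been seen and carries no test, was −1.73. Within the second slide alone the XEN-like values were −1.06 for the upstream probe and 0.87 for the downstream *Nr3c1* probe, while in ES cells genotype and slide cannot be told apart. Which transcripts of *Nr3c1* each probe reads, and whether either reads the receptor part of Gata6GR, which all 12 arrays' cells carry, was not tested. For comparison, the single probe of *Gata6*, a gene that all cells also carry within Gata6GR, read 1285 to 1337 and 1818 to 2005 in *Sox7* (+/−) and *Sox7* (−/−) ES cells, and 1071 to 1984 and 2370 to 2508 in the XEN-like cells of those genotypes. Whether this probe reads Gata6GR, the endogenous *Gata6* gene or both was not tested either.

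*Fkbp5*, the co-chaperone gene that glucocorticoids raise within hours in many tissues, was lower here at day 4 in both genotypes. Its signal (probe at chr17:28536060-28536119, minus strand, mm9) was 741, 755 and 806 in *Sox7* (+/−) ES cells and 159, 139 and 211 in *Sox7* (+/−) XEN-like cells. In the null cells it read 1031, 1147 and 1089 without Dex and 243, 274 and 251 with Dex. The 6 Dex-treated arrays all lay below the 6 untreated ones, and within each cell state the *Sox7* (−/−) arrays were the higher. *Fkbp5* fell 4.59-fold in *Sox7* (+/−) cells (log2 −2.20, SE 0.13, adjusted p = 2.27e-07) and 4.26-fold in *Sox7* (−/−) cells (log2 −2.09, SE 0.13, adjusted p = 2.60e-07), and the difference between these responses was 0.11 (95% confidence interval −0.31 to 0.53). Between the genotypes the differences were 0.50 in ES cells and 0.61 in XEN-like cells (adjusted p = 0.0114 and 0.00617), under 2-fold.

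*Tsc22d3* encodes GILZ, an anti-inflammatory mediator of glucocorticoids. Its probe (chrX:137074094-137074153, minus strand, mm9) read 93.4, 111 and 108 in *Sox7* (+/−) ES cells and 203, 223 and 47.0 in *Sox7* (+/−) XEN-like cells, so that replicate 3 lay below every ES array and the other 2 above. In *Sox7*-null cells the values were 114, 145 and 127 without Dex and 140, 174 and 146 with Dex, and these overlapped. The log2 change was 0.31 (95% confidence interval −0.74 to 1.37) in *Sox7* (+/−) cells and 0.26 (−0.80 to 1.31) in *Sox7* (−/−) cells, neither called. Without *Sox7* (+/−) XEN-like replicate 3 the first became 1.04 (adjusted p = 9.79e-05), which passes the threshold, and without *Sox7* (+/−) XEN-like replicate 1 or 2 it was −0.02 or −0.09. With spike-in scaling *Tsc22d3* in *Sox7* (+/−) cells was at −0.17. The fit takes a common spread from all groups, so *Sox7* (+/−) XEN-like replicate 3 widens the intervals of both genotypes. The SD of the log2 values was 1.26 in *Sox7* (+/−) XEN-like cells and 0.13 in *Sox7* (+/−) ES cells. It was 0.18 and 0.17 in *Sox7* (−/−) ES and XEN-like cells.

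*Per1*, a circadian clock repressor (probe at chr11:68923364-68923423, plus strand, mm9), read 312, 322 and 285 in *Sox7* (+/−) ES cells and 338, 334 and 300 in *Sox7* (+/−) XEN-like cells, which overlapped. In *Sox7* (−/−) cells it read 328, 340 and 345 without Dex and 422, 404 and 411 with Dex, and here all Dex-treated arrays were the higher. The log2 changes of *Per1* were 0.08 (SE 0.07, adjusted p = 0.349) and 0.29 (SE 0.07, adjusted p = 0.00490), both under 2-fold, and the first turned to −0.40 with spike-in scaling. The difference between the responses was 0.21 (adjusted p = 0.157). The second *Per1* probe stayed at 1.73 to 4.24 on the 12 arrays.

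*Zbtb16*, which encodes the zinc finger repressor PLZF, was the gene that rose in both genotypes. Its probe (chr9:48462419-48462478, minus strand, mm9) read 14.5, 8.86 and 15.7 in *Sox7* (+/−) ES cells and 61.0, 60.3 and 25.7 in *Sox7* (+/−) XEN-like cells. In the null cells it read 15.5, 15.5 and 14.2 without Dex and 32.6, 35.2 and 39.3 with Dex. Its lowest Dex-treated array, *Sox7* (+/−) XEN-like replicate 3, was still above every ES array. *Zbtb16* rose 3.61-fold in *Sox7* (+/−) cells (log2 1.85, SE 0.32, adjusted p = 0.000535) and 2.36-fold in *Sox7* (−/−) cells (log2 1.24, SE 0.32, adjusted p = 0.00583), and the responses differed by −0.61 (95% confidence interval −1.61 to 0.39). With slide as a block the value in *Sox7* (−/−) cells was 1.11 (adjusted p = 0.0756), and within the first slide alone 1.11. Both values rest on *Sox7* (−/−) XEN-like replicate 1, the only XEN-like array on the first slide, so no p is given for that slide alone. With normexp correction it was 0.67 for *Zbtb16* in those cells, under 2-fold. On the deposited table, which is not background-subtracted, the log2 values of *Zbtb16* were 0.88 and 0.73, which are under 2-fold.

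*Sgk1*, a kinase that controls ion channels and the gene whose promoter window holds the palindrome, read 976, 943 and 1132 in *Sox7* (+/−) ES cells and 1082, 1041 and 1165 in *Sox7* (+/−) XEN-like cells. In *Sox7*-null cells the values were 1048, 947 and 896 without Dex and 924, 985 and 865 with Dex. The ES and XEN-like arrays overlapped in both genotypes. Its log2 changes were 0.11 (95% confidence interval −0.10 to 0.32) and −0.06 (−0.27 to 0.15), so that changes over 2-fold lay outside both intervals on this scale, and with spike-in scaling *Sgk1* in *Sox7* (+/−) cells was at −0.37. The probe of *Sgk1* lies at chr10:21719507-21719566, plus strand (mm9), and from which start site its signal comes was not tested.

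*Dusp1*, a phosphatase that switches off MAP kinases (probe listed at chr17:26642526-26642536, minus strand, mm9, which covers 11 bases), read 216, 239 and 250 in *Sox7* (+/−) ES cells and 64.6, 67.1 and 67.6 in *Sox7* (+/−) XEN-like cells. In the null cells it read 132, 122 and 111 without Dex and 38.8, 46.9 and 46.7 with Dex. Every Dex-treated array lay below every ES array, and within each cell state the *Sox7* (−/−) arrays were the lower. *Dusp1* fell 3.53-fold in *Sox7* (+/−) cells (log2 −1.82, SE 0.10, adjusted p = 1.06e-07) and 2.76-fold in *Sox7* (−/−) cells (log2 −1.47, SE 0.10, adjusted p = 4.23e-07), and the responses differed by 0.35 (adjusted p = 0.0875). Between the genotypes *Dusp1* differed by −0.95 in ES cells and −0.60 in XEN-like cells (adjusted p = 5.63e-05 and 0.00150), just under 2-fold in the former. The ES difference of *Dusp1* passed 2-fold with quantile normalization (−1.02) and spike-in scaling (−1.10), narrowly with scaling by the median of detected probes, and without replicate 1 of either genotype (both −1.01), and with slide as a block it was −0.68.

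*Cebpd* and *Cebpb* encode C/EBP transcription factors that act early in fat cell and inflammatory programmes. *Cebpd* (probe at chr16:15888459-15888518, plus strand, mm9) read 375, 372 and 372 in *Sox7* (+/−) ES cells and 72.5, 63.4 and 79.6 in *Sox7* (+/−) XEN-like cells. In the null cells it read 205, 221 and 213 without Dex and 76.5, 64.7 and 69.5 with Dex. The ES arrays of the genotypes were apart and the XEN-like arrays overlapped. *Cebpd* fell 5.21-fold in *Sox7* (+/−) cells (log2 −2.38, SE 0.09, adjusted p = 9.17e-09), the most of the 10 genes, and 3.04-fold in *Sox7* (−/−) cells (log2 −1.60, SE 0.09, adjusted p = 1.26e-07). The responses of *Cebpd* differed by 0.78 (SE 0.13, adjusted p = 0.00190), under 2-fold, and this difference of *Cebpd* was 1.18 with spike-in scaling and 1.06 with the deposited values, over 2-fold in both.

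*Cebpb* (probe at chr2:167515828-167515887, plus strand, mm9) read 316, 371 and 354 in *Sox7* (+/−) ES cells and 283, 274 and 164 in *Sox7* (+/−) XEN-like cells. In *Sox7*-null cells the values were 396, 407 and 399 without Dex and 218, 241 and 224 with Dex. The XEN-like arrays were the lower in both genotypes, and *Sox7* (+/−) XEN-like replicate 3 was again apart from the others. The changes of *Cebpb* were −0.57 (SE 0.18, adjusted p = 0.0173) and −0.82 (SE 0.18, adjusted p = 0.00210), both under 2-fold. With spike-in scaling the first was −1.05 (adjusted p = 0.00384), over 2-fold, and without *Sox7* (+/−) XEN-like replicate 3 *Cebpb* was at −0.31 there.

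*Errfi1*, which encodes the feedback inhibitor MIG6 of the EGF receptor, was, of the 10, the gene whose response to Dex differed most between the genotypes. Its probe (chr4:150242886-150242945, plus strand, mm9) read 982, 972 and 1016 in *Sox7* (+/−) ES cells and 461, 393 and 586 in *Sox7* (+/−) XEN-like cells. In the null cells it read 395, 398 and 403 without Dex and 406, 417 and 369 with Dex. The *Sox7* (+/−) ES arrays stood above all the others, and the 9 remaining arrays lay between 369 and 586. *Errfi1* fell 2.09-fold in *Sox7* (+/−) cells (log2 −1.06, SE 0.12, adjusted p = 3.12e-05), and its change in *Sox7* (−/−) cells was −0.01 (95% confidence interval −0.28 to 0.27). Without *Sox7* (+/−) XEN-like replicate 2 the fall of *Errfi1* was under 2-fold (log2 −0.93, adjusted p = 5.64e-05), which leaves 3 of the 10 genes called lower in *Sox7* (+/−) cells. The difference was 1.05 (SE 0.17, adjusted p = 0.00169), and it was the only one of the 10 called, against 6.62% of all tested probes called in that direction and 3.17% in the other. Without *Sox7* (+/−) XEN-like replicate 2 this difference was 0.92 (adjusted p = 0.00168), under 2-fold.

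**Figure D3:**
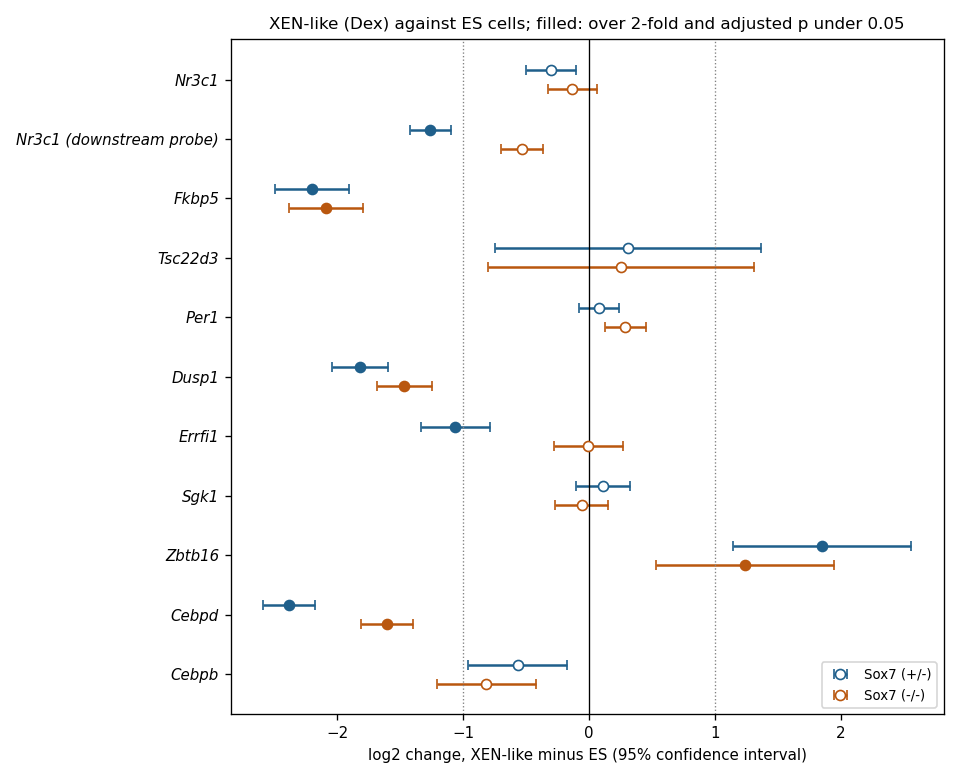
Log2 change from ES to XEN-like cells (Dex) for each gene and both probes of *Nr3c1*, with the 95% confidence interval from the limma fit, in *Sox7* (+/−) and *Sox7* (−/−) cells; filled points are over 2-fold with an adjusted p under 0.05, and dotted lines mark 2-fold. *Cebpd*, *Fkbp5* and *Dusp1* lie to the left of −1 in both genotypes, and *Errfi1* is at −1.06 in *Sox7* (+/−) cells and −0.01 in *Sox7* (−/−) cells.

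Between the genotypes, 2 of the 10 genes, *Nr3c1* by its upstream probe and *Errfi1*, were lower in *Sox7* (−/−) ES cells, against 6.67% of all tested probes called lower and 1.95% called higher. *Errfi1* was 2.48-fold lower there (log2 −1.31, SE 0.12, adjusted p = 2.79e-05), and −0.26 (SE 0.12, adjusted p = 0.132) in XEN-like cells. In XEN-like cells 1 of 10 was called, *Nr3c1* by its upstream probe, against 3.65% called lower and 3.86% higher. With slide as a block, the ES differences were −1.06 for *Nr3c1* and −1.36 for *Errfi1* (adjusted p = 0.00131 and 0.00657). That fit takes the slide effect from 1 *Sox7* (−/−) XEN-like array against the other 2. By the downstream *Nr3c1* probe the counts were 1 and 0 of 10. With no minimum fold, 1 of the 10 was higher and 4 lower in ES cells, against 28.2% and 16.9% of all tested probes, and 2 were higher and 2 lower in XEN-like cells, against 19.1% and 15.4%. By that rule the difference in response was higher for 2 of 10 and lower for 0, against 12.3% and 14.9%.

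**Figure D4:**
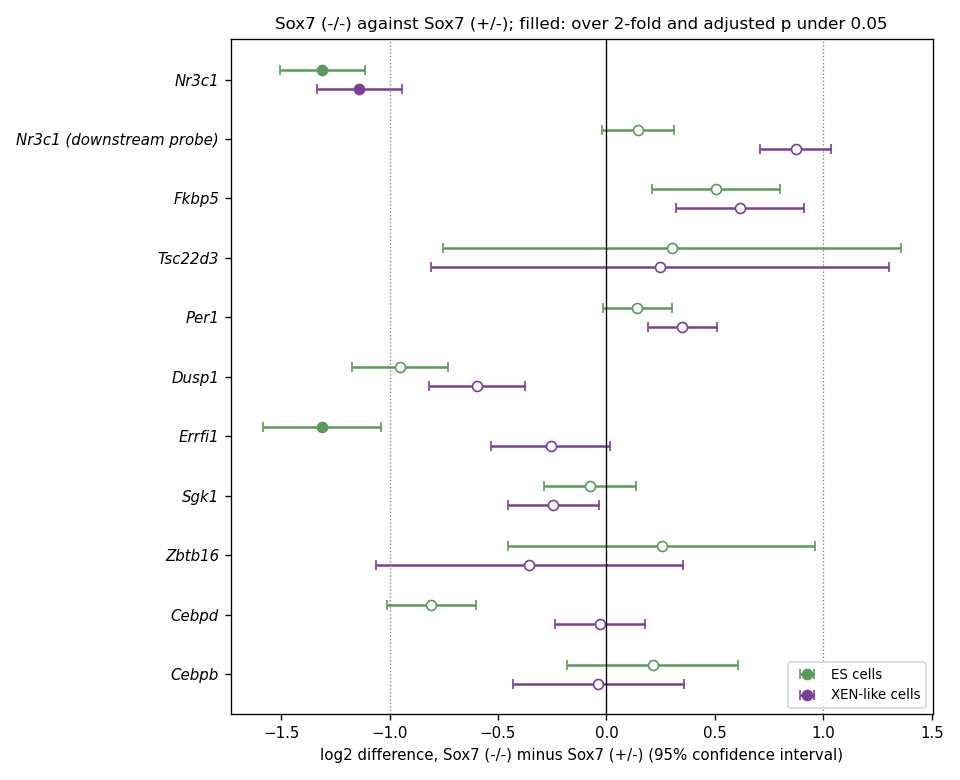
Log2 difference of *Sox7* (−/−) minus *Sox7* (+/−) cells for each gene and both probes of *Nr3c1*, with the 95% confidence interval from the limma fit, in ES and XEN-like cells; filled points are over 2-fold with an adjusted p under 0.05. The upstream probe of *Nr3c1* lies at −1.31 and −1.14 and its downstream probe at 0.14 and 0.87.

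Genes that hold or fold the receptor were read from a list of Hsp90 chaperones and co-chaperones. In *Sox7* (+/−) cells 0 of 15 were called, against 11% of all tested probes called higher and 14% lower. By limma's adjusted p alone 10 of 15 passed, each with a change under 2-fold, against 37.5% of all tested probes higher and 25.3% lower. In *Sox7* (−/−) cells 0 of 15 rose and 2 fell, against 14.6% and 14.2%. These were *Hsp90aa1*, the inducible Hsp90 (log2 −1.29, SE 0.12), and *Ppid*, a cyclophilin co-chaperone (log2 −1.05, SE 0.09). *Fkbp4*, the co-chaperone that competes with the product of *Fkbp5*, changed by −0.66 and −0.46 in *Sox7* (+/−) and *Sox7* (−/−) cells, under 2-fold. Without *Sox7* (+/−) XEN-like replicate 3, *Hsp90aa1* was called lower in *Sox7* (+/−) cells as well, 1 of 15.

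Of 15 tested coregulators of nuclear receptors, 1 rose and 1 fell in *Sox7* (+/−) cells, and 1 rose and 2 fell in *Sox7* (−/−) cells. Over all tested probes 11% were called higher and 14% lower in *Sox7* (+/−) cells, and 14.6% and 14.2% in *Sox7* (−/−) cells. *Nrip1*, which encodes the corepressor RIP140, rose from between 96.3 and 104 to between 272 and 329 in *Sox7* (+/−) cells (log2 1.62, SE 0.09) and by 2.18 (SE 0.09) in *Sox7* (−/−) cells. *Ncoa3*, a p160 coactivator, fell in both (log2 −1.11 and −1.66, SE 0.12). Without *Sox7* (+/−) XEN-like replicate 3 *Ncoa3* was not called in *Sox7* (+/−) cells, leaving 0 of 15 lower. *Sirt1*, a deacetylase, fell in *Sox7* (−/−) cells by 1.65 (SE 0.07).

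Of 10 genes that handle steroid ligands 5 were tested, and in each genotype 2 rose and 2 fell. The shares of all tested probes called higher and lower were 11% and 14% in *Sox7* (+/−) cells and 14.6% and 14.2% in *Sox7* (−/−) cells. *Abcb1a* and *Abcb1b* encode the P-glycoprotein pumps that export Dex from cells. *Abcb1a* went from between 192 and 212 to between 29.2 and 55.1 in *Sox7* (+/−) cells (log2 −2.31, SE 0.20) and from between 280 and 340 to between 30.0 and 38.2 in *Sox7* (−/−) cells (log2 −3.17, SE 0.20). *Abcb1b* fell too (log2 −1.31 and −1.41, SE 0.12). *Srd5a1*, a steroid 5-alpha-reductase, rose by 2.39 (SE 0.14) and 1.14 (SE 0.14), and *H6pd*, which supplies the cofactor for glucocorticoid reactivation, rose by 1.19 (SE 0.11) and 1.70 (SE 0.11). Of 5 related steroid receptors only *Esr2*, an estrogen receptor, was tested, and it was called higher in *Sox7* (+/−) cells (log2 1.01, SE 0.19), a call that was lost without *Sox7* (+/−) XEN-like replicate 3 (log2 0.76).

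A longer list of 38 genes known elsewhere to be raised by glucocorticoids had 31 tested. Of these 5 rose and 11 fell in *Sox7* (+/−) cells, against 11% and 14% of all tested probes. In *Sox7* (−/−) cells 6 rose and 9 fell, against 14.6% and 14.2%. The medians were −0.54 and −0.28 against 0.16 and 0.07 over all tested probes. *Mt2*, a metallothionein, fell from between 20632 and 22807 to between 845 and 1141 in *Sox7* (+/−) cells (log2 −4.42, SE 0.12) and fell in *Sox7* (−/−) cells (log2 −2.81, SE 0.12). *Angptl4*, a secreted inhibitor of lipoprotein lipase, fell in both (log2 −3.73 and −3.18, SE 0.32). In *Sox7* (+/−) cells *Cdkn1c*, a cell cycle inhibitor, fell (log2 −2.77, SE 0.27), as did *Hif3a*, a hypoxia-inducible factor (log2 −2.65, SE 0.15). In *Sox7* (−/−) cells *Pdk4*, a kinase that restrains pyruvate oxidation, fell by 3.90 (SE 0.29), and was well above background on only 1 of the 3 XEN-like arrays there. *Pck1*, which encodes the gluconeogenic enzyme PEPCK, did not pass background without Dex in *Sox7* (−/−) cells, and with Dex it was higher by at least 1.70-fold (adjusted p = 5.45e-05). The filter may have admitted *Pck1* through the Dex-treated group, so this adjusted p is no separate support. The 5 and 6 genes that rose included, in both genotypes, *Rasd1*, a small GTPase (log2 1.84 and 1.86, SE 0.49), *Cdkn1a*, a cell cycle inhibitor (1.65 and 1.64, SE 0.11), and *Lpin1*, a phosphatidate phosphatase (1.32 and 1.85, SE 0.11). These 3 were named after their values had been seen.

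Of 16 genes known to be lowered by glucocorticoids elsewhere, 9 were tested. Of these 1 rose and 5 fell in *Sox7* (+/−) cells, against 11% and 14% of all tested probes. In *Sox7* (−/−) cells 2 rose and 3 fell, against 14.6% and 14.2%. *Ccnd1*, which encodes cyclin D1, was not well above background on any XEN-like array and it was at least 34.0-fold lower with Dex in *Sox7* (+/−) cells and at least 50.6-fold lower in *Sox7* (−/−) cells (adjusted p = 1.10e-07 and 5.27e-08). *Cxcl10*, a chemokine, went from between 89.2 and 111 to between 13.6 and 15.1 in *Sox7* (+/−) cells, where 2 of the 3 XEN-like arrays were well above background. In *Sox7* (−/−) cells *Cxcl10* was not well above background without Dex and at least 8.50-fold higher with Dex (adjusted p = 2.48e-08). *Il6*, a cytokine, was at least 2.68-fold higher with Dex in *Sox7* (+/−) cells, and *Il11*, a related cytokine, at least 1.77-fold lower (adjusted p = 8.03e-08 and 9.37e-06). In each of these comparisons given with "at least", the gene was detected only in the group where it was higher. The filter may have admitted it through that group, so the adjusted p is no separate support. In *Sox7* (−/−) cells *Ptgs2*, which encodes cyclooxygenase 2, and *Il11* were called lower but were not well above background in either cell state, so no fold is given.

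Paralogs of the set were read beside it. Of 14 tested, 2 rose and 6 fell in *Sox7* (+/−) cells, against 11% and 14% of all tested probes. In *Sox7* (−/−) cells 1 rose and 5 fell, against 14.6% and 14.2%. *Dusp6*, an ERK-specific phosphatase, fell from between 1078 and 1156 to between 5.61 and 31.3 in *Sox7* (+/−) cells (log2 −6.03, SE 0.52) and from between 1252 and 1300 to between 15.4 and 24.7 in *Sox7* (−/−) cells (log2 −6.06, SE 0.52). *Dusp4*, a further MAP kinase phosphatase, fell in both (log2 −2.93 and −4.59, SE 0.11), and so did *Sgk2*, a kinase close to *Sgk1* (log2 −3.44 and −4.83, SE 0.57). On the XEN-like arrays *Sgk2* was well above background on 2 of 3 in *Sox7* (+/−) and 1 of 3 in *Sox7* (−/−) cells, and *Dusp6* on 2 of 3 in *Sox7* (+/−) cells, so these falls rest partly on signal near background. *Dusp2* in *Sox7* (+/−) cells was at least 5.08-fold lower (adjusted p = 0.000146), and *Zbtb7c*, a relative of *Zbtb16*, was higher by at least 2.38-fold in *Sox7* (−/−) cells (adjusted p = 0.000339). In these comparisons *Dusp2* and *Zbtb7c* were detected only in the group where they were higher. The filter may have admitted them through it, so these adjusted p are no separate support.

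*Dusp1* and *Errfi1* also belong to the genes that growth factor signalling through ERK raises. Of 16 tested immediate early and ERK feedback genes, 11 fell in each genotype, while 2 rose in *Sox7* (+/−) cells and 3 in *Sox7* (−/−) cells, against 14% and 14.2% of all tested probes called lower and 11% and 14.6% higher. Their medians were −1.84 and −2.27, against 0.16 and 0.07 over all tested probes, and in *Sox7* (−/−) cells, where *Errfi1* was at −0.01, *Dusp1* was at −1.47. *Etv5*, an ETS factor, fell in both genotypes (log2 −5.75 and −5.23, SE 0.09), and so did its relative *Etv4* (log2 −3.56 and −4.47, SE 0.12). *Spry1*, an inhibitor of receptor tyrosine kinase signalling, fell by 5.32 (SE 0.09) in *Sox7* (+/−) cells, and was well above background on only 1 of the 3 XEN-like arrays there. *Dusp4* and *Dusp6*, named above as paralogs, are also in this list, which was chosen with earlier results of these data known. The part of the listed genes in the changes of *Dusp1* and *Errfi1* was not tested.

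**Figure D5:**
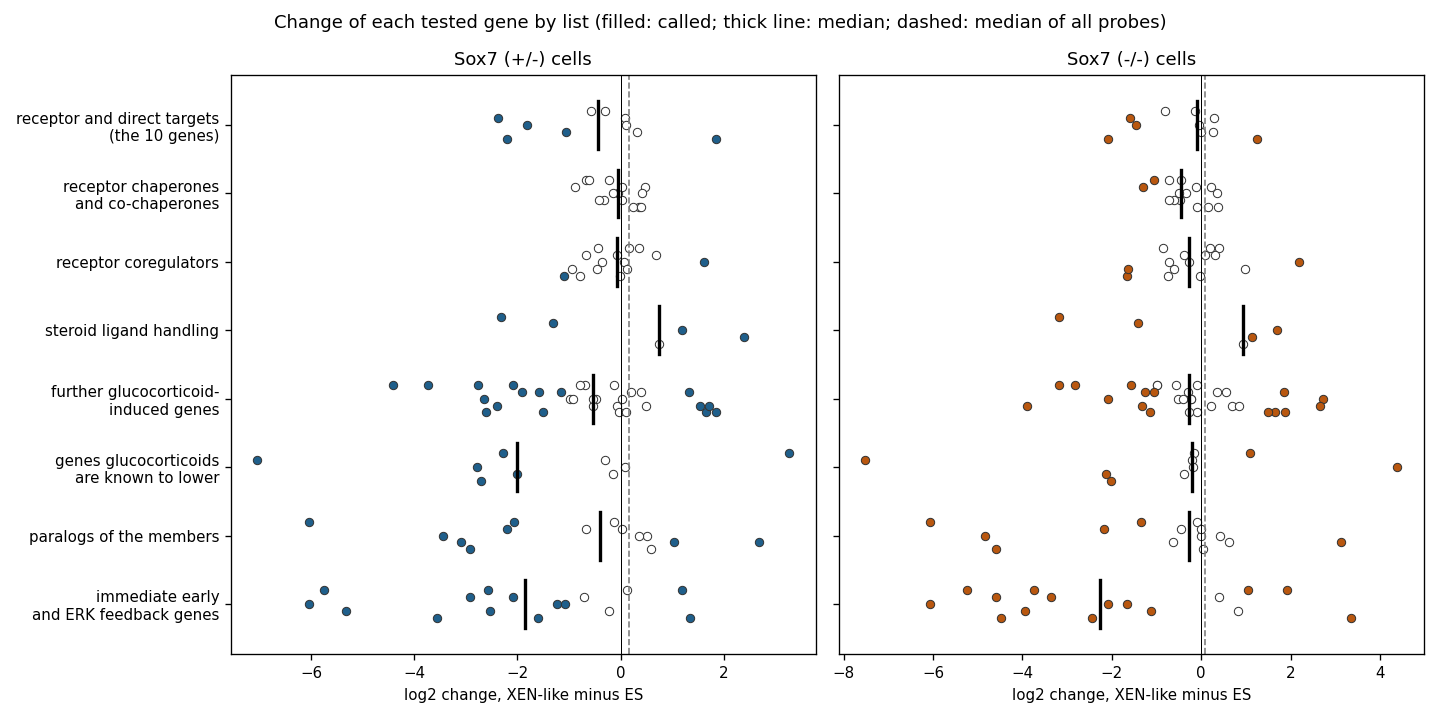
Log2 change from ES to XEN-like cells (Dex) of every tested gene in 8 lists, in *Sox7* (+/−) cells on the left and *Sox7* (−/−) cells on the right; filled points are called, thick lines are list medians and the dashed line is the median of all tested probes. The immediate early and ERK feedback genes have medians of −1.84 and −2.27, and the further glucocorticoid-induced genes hold called genes on both sides of 0.

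Markers of other cell types the cultures could hold were also read. Of 10 fibroblast genes, as from feeder cells, 5 to 6 were well above background on the ES arrays and 2 to 3 on the XEN-like arrays, with summed signals of 499.8 to 846 on XEN-like and 611 to 881 on ES arrays, and *Dcn*, *Lum* and *Dpt* were not well above background on any array. Of 10 trophectoderm genes 5 to 8 were well above background on an array. Their summed signal was 45574 to 47209 in *Sox7* (+/−) ES and 34951 to 71484 in *Sox7* (+/−) XEN-like cells. It was 12804 to 16262 in *Sox7* (−/−) ES and 33125 to 37971 in *Sox7* (−/−) XEN-like cells. Among the 8 tested, 0 were called higher and 4 lower with Dex in *Sox7* (+/−) cells, and 2 and 2 in *Sox7* (−/−) cells. In *Sox7* (−/−) cells *Krt18* rose from between 2799 and 3033 to between 13442 and 15342 (log2 2.30), and *Krt8* rose too (log2 1.71). *Tfap2c* fell there (log2 −2.68), and *Hand1* was called lower and was not well above background with Dex. Of 8 epiblast and neural genes, the summed signal was 2052 to 3089 on the ES arrays and 263 to 473 on the XEN-like arrays. Among 6 tested fibroblast genes 1 was called higher and 4 lower with Dex in *Sox7* (+/−) cells, and 0 and 3 in *Sox7* (−/−) cells. For 6 tested epiblast and neural genes these counts were 1 and 4, and 0 and 4. The part of these marker genes in the changes above was not tested.

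The genes whose pattern over the 12 arrays was most like that of the upstream *Nr3c1* probe were *Ddit4* (Pearson's r = 0.988), *Gm5068* (r = 0.983) and *Pmp22* (r = 0.980), among 18991 genes compared. For *Fkbp5* they were *Bin2*, *Adap1* and *Zscan10* (r = 0.997, 0.996 and 0.996). These values describe arrays that share 4 group means, and carry no test.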

How the data were processed

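RNA of 4 groups of Gata6GR ES cells had been hybridized to 12 one-colour Agilent mouse arrays. The authors deposited intensity values per spot from Agilent Feature Extraction 10.7.3.1, whose processed signal is background-subtracted but not scaled between arrays, and a table of unscaled mean spot intensity. Probe positions are those of the files (mm9), and no mm9 gene annotation was used. Processed signals were divided by the 75th percentile of their array and put on a log2 scale, flagged outlier spots and control spots were left out, and spots of a probe were averaged, giving 55681 probes. Probes detected above background throughout the 3 arrays of some group, 25940 in number, entered a single limma fit (version 3.58.1, R 4.3.3) of the 4 group means, from which 5 comparisons were drawn. A gene was read by its brightest probe, and called at an adjusted p under 0.05 and over 2-fold. The procedure was run on simulated arrays with known changes. These had the same spread in every group and no slide effect, so they do not test the fit under unequal spread or a slide effect. Where a probe was not well above background on any array of a group, "at least" sets the other group's mean against the lowest detected signal of those arrays, or the dim probe's own where higher. Such a probe may have passed the filter through the group where it was higher, so its adjusted p is no separate support.

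The 10 genes and all lists were chosen with earlier results of these data known. From each further list, at most 4 called genes with the largest change whose groups do not overlap were to be named in each Dex comparison. Alternatives were other background corrections, scalings, filters, probe summaries, blocks and sets of arrays. Precision is limited by having 3 arrays in each group.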

Additional observations from a re-analysis of the deposited data

Results flagged for a closer look

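The response of *Errfi1* to Dex differed between the genotypes by 1.05 on the log2 scale (SE 0.17, adjusted p = 0.00169, limma), with a fall in 3 of 3 *Sox7* (+/−) XEN-like arrays against every *Sox7* (+/−) ES array and overlapping arrays in *Sox7* (−/−) cells. It drew attention because the difference itself passed the test and exceeded 2-fold. By the same rule 6.62% of all tested probes were called in that direction and 3.17% in the other. *Errfi1* was picked from the 10 genes by this test, so its adjusted p is no separate support. The difference was 0.92 without *Sox7* (+/−) XEN-like replicate 2 and 1.09 with slide as a block.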

How the results depend on the processing

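The falls of *Fkbp5*, *Dusp1* and *Cebpd* in both genotypes and of *Errfi1* in *Sox7* (+/−) cells kept their direction under every alternative run. Of 10 counts of called genes under all alternatives, those that moved by over 1.5 times are given here. With the deposited values 0 of the 10 were called higher with Dex in either genotype, 0 lower between XEN-like cells and 2 higher in the difference of responses. With normexp correction 0 were called higher with Dex in *Sox7* (−/−) cells and 0 lower between XEN-like cells. Spike-in scaling gave 0 lower between XEN-like cells and 2 higher in the difference, and slide as a block gave 0 higher with Dex in *Sox7* (−/−) cells. The mean of a gene's probes, or the downstream *Nr3c1* probe (chosen after seeing the data), gave 0 lower between XEN-like cells and 1 lower between ES cells. With no minimum fold, 2 were higher with Dex in *Sox7* (−/−) cells, 2 higher and 2 lower between XEN-like cells, 1 higher and 4 lower between ES cells, and 2 higher in the difference. Leaving out 1 array gave 1 to 2 higher with Dex in *Sox7* (+/−) cells (2 without *Sox7* (+/−) XEN-like replicate 3, which adds *Tsc22d3*), 0 to 1 higher in the difference (0 without *Sox7* (+/−) XEN-like replicate 2) and 0 to 1 lower (1, *Zbtb16*, without *Sox7* (+/−) XEN-like replicate 3). The causes were not tested.

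Values changed sign as follows. For Dex in *Sox7* (+/−) cells, *Per1* was −0.013 with normexp, −0.046 with quantile normalization, −0.031 with the median of detected probes, −0.40 with spike-in scaling and −0.40 on the deposited table. *Sgk1* was −0.085 with quantile normalization, −0.00061 with the median of detected probes, −0.37 with spike-in scaling and −0.37 on the deposited table, and *Tsc22d3* was −0.17 with spike-in scaling, −0.044 on the deposited table and −0.085 to 1.04 without 1 array, with the highest value called. For Dex in *Sox7* (−/−) cells, *Errfi1* was 0.010 with normexp, 0.025 with slide as a block or within slide 1 (chosen after seeing the data) and −0.044 to 0.044 without 1 array, and *Sgk1* was −0.11 to 0.0035 without 1 array.

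Between XEN-like cells, spike-in scaling gave 0.0043 for *Sgk1*, 0.22 for *Cebpd* and 0.21 for *Cebpb*. There the deposited table gave 0.16 for *Sgk1*, 0.015 for *Zbtb16*, 0.34 for *Cebpd*, 0.31 for *Cebpb* and 0.092 for *Errfi1*, and quantile normalization gave 0.018 for *Cebpd*. Without 1 array the ranges were −0.48 to 0.64 for *Tsc22d3*, −0.12 to 0.048 for *Cebpd* and −0.29 to 0.10 for *Cebpb*. Between ES cells, spike-in scaling gave −0.012 for *Per1* and −0.0090 for the downstream probe of *Nr3c1*, and without 1 array *Sgk1* ranged from −0.14 to 0.0034 and *Zbtb16* from −0.00039 to 0.41. For the difference of responses, spike-in scaling gave 0.35 for *Tsc22d3*, 0.23 for *Sgk1* and 0.15 for *Cebpb*, the deposited table gave 0.24, 0.32 and 0.11, and without 1 array *Fkbp5* ranged from −0.024 to 0.28 and *Tsc22d3* from −0.78 to 0.34.

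Arrays with the same replicate number did not deviate together (r of −0.051 to 0.126, against −0.139 to 0.101 for other numbers), although 8 of 12 arrays matched their own number best, so the numbers were not taken as pairs. With a replicate block the counts of called genes were the same in every comparison, for example 1 higher and 4 lower with Dex in *Sox7* (+/−) cells and 1 higher and 3 lower in *Sox7* (−/−) cells. Signal over background limits *Zbtb16* and the second *Per1* probe most.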
